A study of Mus musculus with 8 samples.

Results

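Lines 6694c2 and 2838c3 are 2 of the 4 mouse pancreatic ductal adenocarcinoma (mPDAC) cell lines of the study, and they are set here against the other 2 lines, 6499c4 and 6419c5. The pair was chosen by correlation: among the 3 ways to split 4 lines into pairs, this split gave the highest correlations between libraries of different lines of a pair. Each line has 1 KO library (C1galt1c1 knockout, Tn-positive) and 1 WT library, so the 6694c2 and 2838c3 pair holds 4 of the 8 libraries and the 6499c4 and 6419c5 pair holds the other 4. C1galt1c1 encodes Cosmc, the chaperone that the core 1 O-glycan synthase needs, and the study asked how its loss changes the transcriptome. All 4 lines grew in the same high-glucose DMEM with serum, and polyadenylated RNA was sequenced. As background, these names are those of clonal lines from tumours of a mouse model of the disease with driver mutations in the Pdx1 lineage, so each line is 1 clone and stands for 1 tumour. Also as background, 6694c2 and 6419c5 are known for tumours poor in T cells, and 2838c3 and 6499c4 for tumours rich in them, so each pair holds a line of either kind.

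Pancreatic ductal tumours share an endodermal gene programme with stomach and intestine, and mucins, trefoil factors, claudins and lineage transcription factors are the genes by which their epithelial states are commonly told apart. Interferon-stimulated genes form another axis on which tumour lines differ in culture, since cells vary in their tonic signalling through sensors such as STING. Values are TPM, transcript shares that weigh reads by gene length and sum to 1000000 in each library. Where a sentence gives 2 values for a line, the first is its KO library and the second its WT library. Differences are those of mean log2(TPM + 1), 6694c2 and 2838c3 minus 6499c4 and 6419c5, so a positive value means higher in 6694c2 and 2838c3. Because all genes of these libraries went into the choice of the pairs, the differences in level are a description and carry no test. The 2 libraries of a line are not independent, and there are 2 lines in each pair.

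C1galt1c1, the targeted gene, was at 10.9 and 37.0 TPM in 6694c2 and 15.3 and 40.4 TPM in 2838c3, against 18.98 and 54.2 TPM in 6499c4 and 16.1 and 37.9 TPM in 6419c5. It was lower in the KO than in the WT library of each of the 4 lines, and its levels overlapped between the pairs.

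Across the 12900 genes with at least 1 TPM in at least 4 libraries, the 8 correlations between a 6694c2 and a 2838c3 library or between a 6499c4 and a 6419c5 library ran between 0.916 and 0.941, with a mean Pearson r of 0.929. The 16 correlations across the pairs ran between 0.868 and 0.912, with a mean of 0.898. The lowest value inside a pair and the highest across the pairs were therefore 0.916 and 0.912. The 4 correlations of a KO library with the WT library of its own line ran between 0.944 and 0.983, the lowest being that of 2838c3. Grouping 6694c2 with 6499c4 and 2838c3 with 6419c5 gave a mean within-pair r of 0.899, and grouping 6694c2 with 6419c5 and 2838c3 with 6499c4 gave 0.897. Among the KO libraries alone, the 3 groupings had means of 0.921, 0.895 and 0.907 in the same order. Among the WT libraries alone they had 0.934, 0.899 and 0.895. These are correlations across genes, and genes are not independent replicates.

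**Figure D1:**
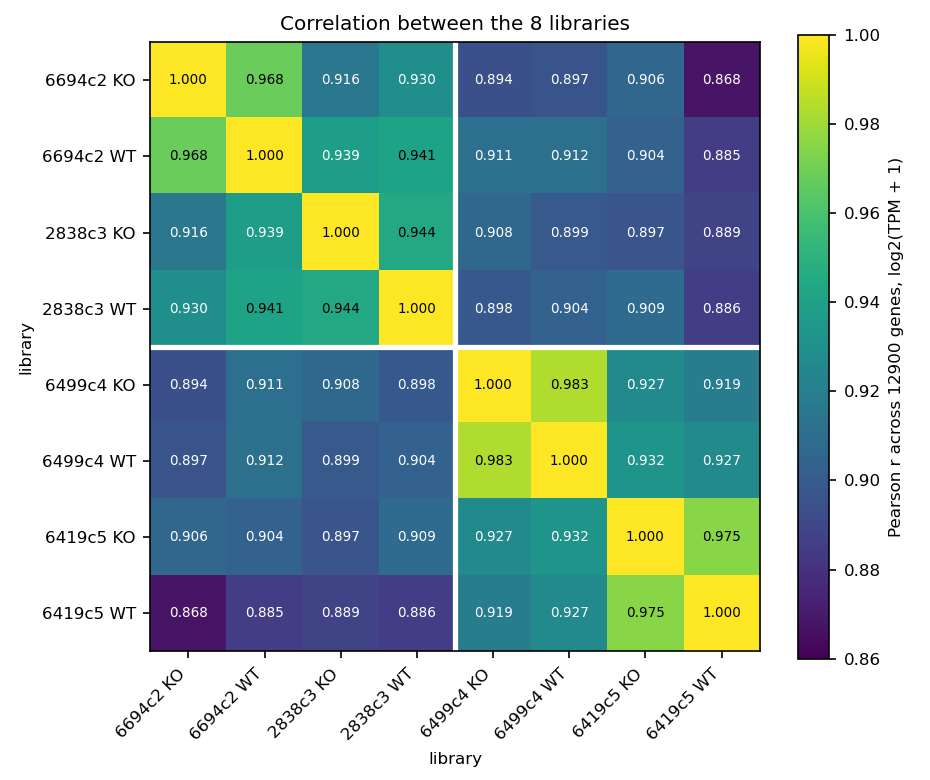
Heat map of Pearson r between libraries across 12900 genes on log2(TPM + 1), rows and columns in the order 6694c2, 2838c3, 6499c4 and 6419c5 with KO before WT, and white lines between the pairs. Values between lines inside a pair lie between 0.916 and 0.941, and values across the pairs between 0.868 and 0.912.

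A gene is called here when all 4 libraries of one pair lie above all 4 of the other and the difference is at least 1, a 2-fold difference on this scale. By that rule 236 genes, 1.83% of those tested, were higher in 6694c2 and 2838c3, and 554 genes, 4.29%, were lower. Without a minimum difference, the libraries did not overlap for 906 genes higher and 1281 genes lower. Of the 790 called genes 29.9% were higher and 70.1% lower, while the median difference of all genes tested was -0.04. The lines of a pair also differed from each other: 1126 genes differed at least 2-fold between the means of 6694c2 and 2838c3, and 1374 between those of 6499c4 and 6419c5, against 1342 between the means of the pairs. For 742 of the called genes the KO change in every line was smaller than the pair difference, which the calling rule favours. For 500 of the called genes the difference stayed at 1 or more with any single line left out. Called genes numbered 444 higher and 681 lower without 6694c2 and 532 and 979 without 2838c3. They numbered 448 and 1026 without 6499c4 and 598 and 708 without 6419c5. Fewer libraries have to be apart when some are left out. Without the KO library of 2838c3 alone 418 were called higher, against 243 without the WT library of 6694c2 alone. The cause of that spread was not tested.

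Complete switches were fewer. Sall1, a zinc finger transcription factor of kidney and neural development, was the one gene (0.00775% of those tested) above 10 TPM in all libraries of 6694c2 and 2838c3 and below 1 TPM in all of 6499c4 and 6419c5. In the opposite direction, 16 genes (0.124%) were below 1 TPM in all libraries of 6694c2 and 2838c3 and above 10 TPM in all of 6499c4 and 6419c5. They are, named after their values were seen, Sox17, Gulp1, Stk39, Mageh1, Gpr160, Edn2, Cldn3, Sema4f, Irag2, Arrdc4, Tmem200a, Nepn, Slc6a15, Arhgap44, Snhg18 and Ehd3. More widely, 117 of the 554 genes called lower were below 1 TPM in every 6694c2 and 2838c3 library, and 33 of the 236 called higher were below 1 TPM in every 6499c4 and 6419c5 library. The filter passes a gene that is present in the libraries of 1 pair only, so such genes had to differ.

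The largest difference upward was that of the trefoil factor genes, whose small secreted peptides protect the gastric and intestinal mucosa. Tff2 (chr17:31360023-31363262, GRCm39) was at 228 and 346 TPM in 6694c2 and 63.6 and 149 TPM in 2838c3, against 1.32 and 3.39 TPM in 6499c4 and 4.71 and 5.47 TPM in 6419c5. Its neighbour Tff1 (chr17:31380369-31384251, GRCm39) was at 15491 and 9003 TPM in 6694c2 and 187 and 935 TPM in 2838c3, against 28.6 and 90.0 TPM in 6499c4 and 127 and 74.4 TPM in 6419c5. The 4 upper libraries exceeded the 4 lower ones for both genes, and for Tff1 the level of 6694c2 was also far above that of 2838c3. The differences were 5.24 for Tff2 and 4.96 for Tff1, and with 6694c2 left out that of Tff1 was 2.55.

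Next came Sulf2, an extracellular heparan sulphate sulphatase, at 39.7 and 59.0 TPM in 6694c2 and 16.5 and 57.6 TPM in 2838c3, against 0.380 and 0.422 TPM in 6499c4 and 0.931 and 1.15 TPM in 6419c5. Nqo1, the quinone reductase controlled by NRF2, was at 282 and 120.0 TPM in 6694c2 and 24.2 and 148 TPM in 2838c3, against 0.711 and 1.27 TPM in 6499c4 and 18.9 and 7.10 TPM in 6419c5. The lowest 2838c3 library and the highest 6419c5 library of Nqo1 nearly met, and its difference was 4.41. Other antioxidant and conjugation enzymes were mixed: of 67 tested genes 4 were called higher and 3 lower, against 1.83% and 4.29% of all genes, and the list's median was 0.41. The 3 called lower are a share near that of all genes. One of the 4 was Abcc4, an efflux pump for organic anions and cyclic nucleotides, at 435 and 319.6 TPM in 6694c2 and 124 and 186 TPM in 2838c3, against 40.0 and 47.3 TPM in 6499c4 and 43.3 and 73.8 TPM in 6419c5.

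Pax2, Cdh16 and Sall1 were also among the leaders upward. Pax2, the paired-box regulator of the nephric duct, was at 9.93 and 9.45 TPM in 6694c2 and 24.4 and 32.5 TPM in 2838c3, against 0.102 and 0.0146 TPM in 6499c4 and 0.115 and 0.533 TPM in 6419c5. Cdh16, kidney-specific cadherin, was at 6.63 and 11.4 TPM in 6694c2 and 23.2 and 28.9 TPM in 2838c3, against 0.0291 and 0.0209 TPM in 6499c4 and 0.0234 and 0.0815 TPM in 6419c5. Sall1 was at 10.2 and 15.7 TPM in 6694c2 and 29.8 and 17.1 TPM in 2838c3, against 0.105 and 0.0902 TPM in 6499c4 and 0.185 and 0.254 TPM in 6419c5. All 3 were below 1 TPM in each 6499c4 and 6419c5 library, and 2838c3 was higher than 6694c2 for each of them on the mean of its libraries. Further leaders upward were Oaf with a difference of 3.66, Smagp, a small cell adhesion glycoprotein, with 3.38, and Itga7, a laminin-binding integrin chain, with 3.17. Smagp was at 96.1 and 99.3 TPM in 6694c2 and 53.8 and 21.6 TPM in 2838c3, against 7.35 and 7.97 TPM in 6499c4 and 1.94 and 3.61 TPM in 6419c5. For Oaf and Itga7 the 6419c5 libraries, at 11.8 TPM or more, lay well above those of 6499c4, at 0.882 TPM or less, and without 6499c4 their differences were 1.91 and 1.58.

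The largest differences downward were greater still. Nepn, nephrocan, a secreted leucine-rich repeat protein known from the endoderm of the gut, was at 0.777 and 0.208 TPM in 6694c2 and 0.558 and 0.399 TPM in 2838c3, against 54.6 and 225 TPM in 6499c4 and 106 and 205 TPM in 6419c5. Car8, a catalytically inactive carbonic anhydrase relative, was at 0.482 and 0.906 TPM in 6694c2 and 1.71 and 1.03 TPM in 2838c3, against 81.7 and 139 TPM in 6499c4 and 163 and 194 TPM in 6419c5. Sox17, the endoderm and biliary transcription factor, was at 0.241 and 0.334 TPM in 6694c2 and 0.476 and 0.271 TPM in 2838c3, against 116 and 127 TPM in 6499c4 and 48.3 and 58.2 TPM in 6419c5. For each of the 3 genes, no library of 6694c2 and 2838c3 exceeded 1.71 TPM and none of 6499c4 and 6419c5 was under 48.3 TPM. The differences were -6.45, -6.13 and -5.94, and with any single line left out they stayed at -5.35 or below.

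Dmbt1, a scavenger receptor protein of mucosal secretions, was at 16.9 and 19.2 TPM in 6694c2 and 3.55 and 2.44 TPM in 2838c3, against 579.7 and 1272 TPM in 6499c4 and 200.4 and 321 TPM in 6419c5. Cldn3, a tight junction claudin, was at 0.632 and 0.783 TPM in 6694c2 and 0.622 and 0.321 TPM in 2838c3, against 233 and 153 TPM in 6499c4 and 30.0 and 20.1 TPM in 6419c5. Cdhr5, a protocadherin of the enterocyte brush border, was at 2.84 and 0.997 TPM in 6694c2 and 0.972 and 0.384 TPM in 2838c3, against 63.5 and 57.0 TPM in 6499c4 and 133 and 138 TPM in 6419c5. Libraries of the pairs were apart in all 3, with 6694c2 above 2838c3 for Dmbt1 and 6499c4 above 6419c5 for Cldn3.

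For several leaders downward, 6419c5 lay far above 6499c4. Rhox5, a homeobox gene on the X chromosome known from the reproductive tract and from tumour lines, was at 7.51 and 3.82 TPM in 6694c2 and 4.78 and 3.32 TPM in 2838c3, against 21.4 and 11.8 TPM in 6499c4 and 2752 and 1924 TPM in 6419c5. Isx, an intestine-specific homeobox repressor of vitamin A metabolism, was at 0.395 and 0.127 TPM in 6694c2 and 0.218 and 0.315 TPM in 2838c3, against 2.71 and 12.8 TPM in 6499c4 and 134 and 241 TPM in 6419c5. Without 6419c5 the difference of Rhox5 was -1.58 in place of -5.12, and that of Isx was -2.50 in place of -4.83. The same held for Rasl11a, a Ras-like GTPase, with -2.27 in place of -4.70, and for Cst9, a cystatin, with -3.03 in place of -4.68. Gpr15lg, the gene of a chemotactic ligand of the receptor GPR15, was at 3.21 and 6.69 TPM in 6694c2 and 17.7 and 1.07 TPM in 2838c3, against 235 and 39.8 TPM in 6499c4 and 327 and 462 TPM in 6419c5. Its KO minus WT difference was 3.17 in 2838c3 and 2.53 in 6499c4, so this gene varied widely inside lines too. Arhgap44, a GTPase activating protein, differed by -4.72 and was below 1 TPM in each 6694c2 and 2838c3 library.

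**Figure D2:**
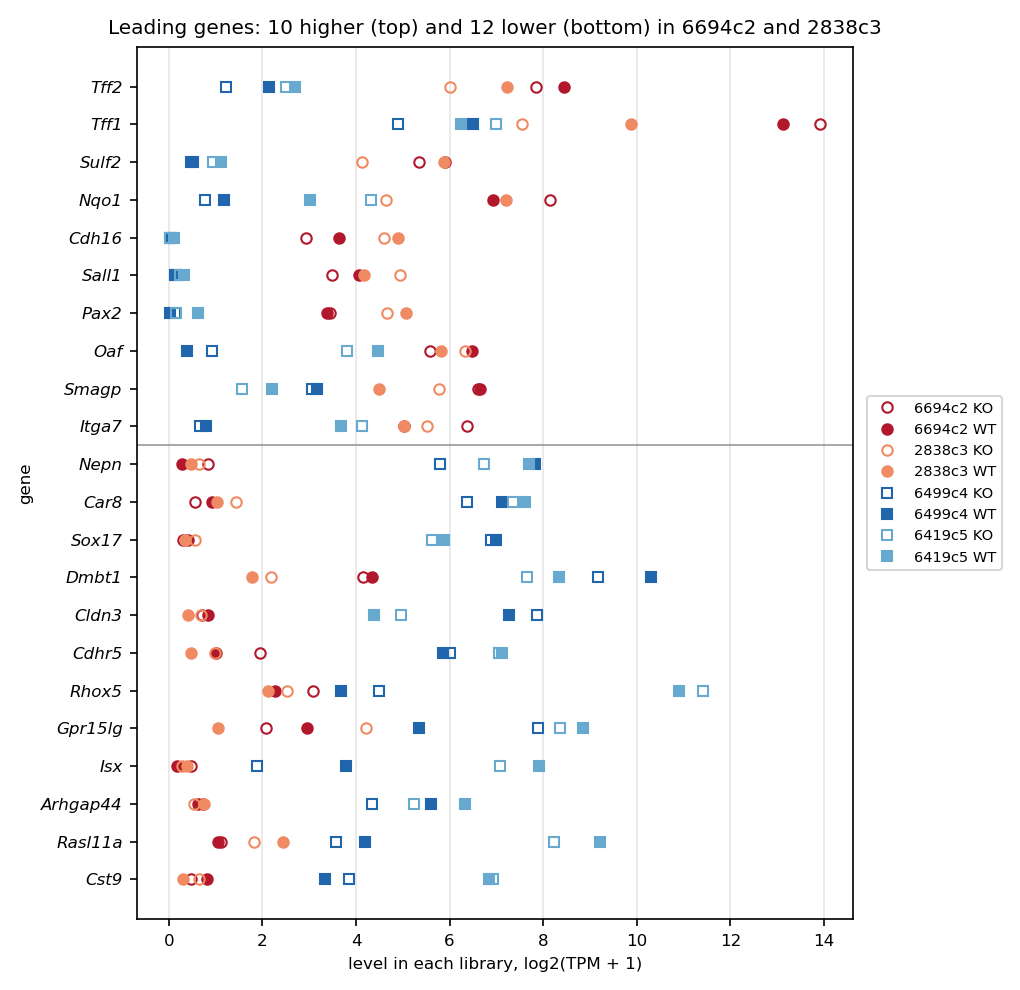
Level of 22 leading genes, 10 higher and 12 lower, log2(TPM + 1) on the x axis, with red circles for 6694c2 and 2838c3, blue squares for 6499c4 and 6419c5, open symbols for KO and filled ones for WT libraries. Red and blue do not overlap in any row, and the Rhox5, Isx, Rasl11a and Cst9 rows show 6419c5 far to the right of 6499c4.

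Promoter sequence is described here for the called genes, which were picked on the levels that also chose the pairs. Of them, 117 of 554 called lower and 33 of 236 called higher passed the filter only through the pair where they were high. Windows of 300 bases around each gene's annotated start were used (250 before, 50 after, GRCm39). Fewer than 10 CG dinucleotides were present for 45.1% of genes called higher and 50.8% of those called lower. The share was 35.2% of the tested genes that were not called and 72% of all genes in the table. The median number of CG was 11 for genes called higher, 9 for genes called lower and 14 for those not called. The word TATAAA, on either strand, was present for 10.7% of genes called higher, 12.7% of those called lower and 9.7% of those not called, and for 17% of all genes in the table. A start was found for 98.7% of genes called higher, 98% of those called lower and 99% of those not called. Level and tissue breadth of a gene are known to go with the CG content of its promoter, and no test was made. The sequences below, from RefSeq on GRCm38.p6, 5′ to 3′ on the gene's strand, are of 3 leading genes with few CG and of Cdx2, an intestinal regulator with many, with each CG in capitals. Of 25 symbols looked up, 11 had a single entry, and in these windows the number of CG ran from 2 for Isx to 21 for Oaf. Nqo1 (chr8:107403156-107403455, minus strand) has 5 CG, Nepn (chr10:52391358-52391657, plus strand) has 3, Isx (chr8:74872924-74873223, plus strand) has 2 and Cdx2 (chr5:147307200-147307499, minus strand) has 18. TATAAA is present in the Nqo1 and Nepn windows and in neither of the other two.
Nqo1: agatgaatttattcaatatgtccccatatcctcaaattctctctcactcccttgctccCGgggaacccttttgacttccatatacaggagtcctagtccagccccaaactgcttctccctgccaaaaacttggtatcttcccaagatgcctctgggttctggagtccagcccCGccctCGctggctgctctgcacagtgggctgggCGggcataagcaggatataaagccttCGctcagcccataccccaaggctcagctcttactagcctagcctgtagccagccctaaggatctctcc
Nepn: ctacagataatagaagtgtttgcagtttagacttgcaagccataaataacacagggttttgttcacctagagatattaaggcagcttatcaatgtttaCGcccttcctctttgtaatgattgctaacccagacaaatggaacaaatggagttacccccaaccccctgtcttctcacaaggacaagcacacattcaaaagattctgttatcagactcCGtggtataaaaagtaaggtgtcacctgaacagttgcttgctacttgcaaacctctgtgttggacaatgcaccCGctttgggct
Isx: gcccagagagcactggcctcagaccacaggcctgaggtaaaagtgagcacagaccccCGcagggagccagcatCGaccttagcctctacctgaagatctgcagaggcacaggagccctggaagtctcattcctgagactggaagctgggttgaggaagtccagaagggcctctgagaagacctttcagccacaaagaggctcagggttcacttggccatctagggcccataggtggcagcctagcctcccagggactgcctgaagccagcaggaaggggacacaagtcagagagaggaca
Cdx2: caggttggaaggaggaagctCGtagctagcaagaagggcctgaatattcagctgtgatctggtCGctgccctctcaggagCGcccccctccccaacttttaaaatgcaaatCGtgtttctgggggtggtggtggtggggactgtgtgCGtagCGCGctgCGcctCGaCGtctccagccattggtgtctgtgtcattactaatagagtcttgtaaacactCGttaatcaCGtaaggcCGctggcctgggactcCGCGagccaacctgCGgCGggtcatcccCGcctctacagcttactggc

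Of 22 pancreatic and endodermal transcription factors tested, 4 were called lower in 6694c2 and 2838c3 and 0 higher, against the 4.29% and 1.83% of all genes, and the list's median was -0.04. Besides Sox17 they were Cdx2, the master regulator of intestinal identity, Hnf4g and Foxa1. Cdx2 was at 12.8 and 14.7 TPM in 6694c2 and 5.65 and 1.86 TPM in 2838c3, against 114 and 127 TPM in 6499c4 and 163 and 245 TPM in 6419c5. Hnf4g, the nuclear receptor paralogue of Hnf4a abundant in gut, was at 0.471 and 0.490 TPM in 6694c2 and 0.149 and 0.246 TPM in 2838c3, against 3.61 and 6.62 TPM in 6499c4 and 15.0 and 27.1 TPM in 6419c5. Foxa1, a pioneer factor of endoderm, was at 1.72 and 2.78 TPM in 6694c2 and 4.91 and 3.42 TPM in 2838c3, against 9.46 and 9.07 TPM in 6499c4 and 9.13 and 12.5 TPM in 6419c5. All 3 were apart between the pairs, with differences of -4.28, -3.07 and -1.44. Sox17 and Hnf4g were below 1 TPM in every 6694c2 and 2838c3 library and passed the filter only through the other pair.

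Of the 22 factors, 11 had a positive difference and 11 a negative one. Sox9 was at 6.74 and 14.6 TPM in 6694c2 and at 17.4 TPM or more in 2838c3. The 6499c4 and 6419c5 libraries of Sox9 were at 8.4 TPM or less, so the KO library of 6694c2 overlapped with them. Some other factors of the list were at similar levels in the pairs. Hnf4a had a difference of 0.13, Gata4 of 0.04 and Foxa2 of 0.39. Hnf4a, for example, was at 131 and 208 TPM in 6694c2 and 216 and 358 TPM in 2838c3, against 179 and 172 TPM in 6499c4 and 199 and 240.3 TPM in 6419c5. Pdx1, the pancreatic master regulator, had a difference of -1.75 but overlapped, at 31.2 and 69.1 TPM in 6694c2 and 10.2 and 8.95 TPM in 2838c3, against 58.0 and 63.4 TPM in 6499c4 and 74.2 and 111 TPM in 6419c5. The 2838c3 libraries were the low ones for Pdx1, while 6694c2 was within or near the range of the other lines.

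Among 15 factors known from the epithelial to mesenchymal transition, 3 were called lower and 0 higher, against 4.29% and 1.83% of all genes. The list's median was -0.13. Twist1, a factor that promotes the transition, was at 0.219 and 0.0939 TPM in 6694c2 and 0.145 and 0.350 TPM in 2838c3, against 54.1 and 45.9 TPM in 6499c4 and 6.87 and 5.101 TPM in 6419c5. Ehf, an ETS factor that maintains epithelium, was at 0.317 and 0.966 TPM in 6694c2 and 0.688 and 0.594 TPM in 2838c3, against 35.1 and 63.4 TPM in 6499c4 and 3.12 and 7.69 TPM in 6419c5. Twist1 and Ehf were both highest in 6499c4, and the list's members with opposite known roles thus lay in the same direction. Both were below 1 TPM in every 6694c2 and 2838c3 library and passed the filter only through the other pair. Without 6499c4 the difference of Twist1 was -2.53 in place of -3.97, and that of Ehf was -1.88 in place of -3.39. Zeb1, which represses epithelial genes, overlapped, with a difference of 0.08.

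Of 37 epithelial junction and adhesion genes, 3 were called lower and 1 higher, against 4.29% and 1.83% of all genes. Of the 37, 28 had a negative difference, with a median of -0.56. The called ones were Cldn3, Spint1 and Marveld3 downward and Dsp upward, and Marveld3 and Dsp were picked for naming after their values were seen. Spint1, a membrane-bound inhibitor of matriptase, was at 3.13 and 1.65 TPM in 6694c2 and 0.566 and 1.14 TPM in 2838c3, against 11.4 and 17.1 TPM in 6499c4 and 9.02 and 18.6 TPM in 6419c5. Dsp, desmoplakin, was at 115 and 185 TPM in 6694c2 and 188 and 269 TPM in 2838c3, against 55.6 and 63.7 TPM in 6499c4 and 75.7 and 105 TPM in 6419c5. Its difference of 1.30 was 0.99 without 2838c3. Cldn6, an embryonic claudin, had a difference of -3.18 but overlapped, since the 2838c3 libraries at 54.3 and 136 TPM lay on either side of those of 6419c5 at 90.5 and 65.5 TPM. Epcam, the epithelial adhesion molecule, also overlapped, at 1.21 and 3.12 TPM in 6694c2 and 25.1 and 1.35 TPM in 2838c3, against 9.15 and 12.03 TPM in 6499c4 and 27.1 and 44.9 TPM in 6419c5. The KO library of 2838c3 was the exception among the 4 Epcam values of its pair.

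Keratin genes showed 1 member called of 15, while over all genes 4.29% were called lower and 1.83% higher. Krt7, a keratin of ductal epithelium, was at 21.6 and 35.3 TPM in 6694c2 and 425 and 374 TPM in 2838c3, against 1397 and 1256 TPM in 6499c4 and 542 and 739 TPM in 6419c5. The 6694c2 libraries were about an order of magnitude below those of 2838c3, and the difference was -3.10, or -1.20 without 6694c2. Krt8, Krt18 and Krt19 stood at 2528 TPM or more in every library of both pairs.

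Gastric and secretory genes split: of 22 tested, 4 were called higher and 4 lower, against 1.83% and 4.29% of all genes. Those called higher were Tff1, Tff2, Muc5ac and Muc5b, and those called lower were Dmbt1, Tm4sf20, Agr2 and Lgals4. Muc5ac, Muc5b and Lgals4 were picked for naming after their values were seen. Muc5ac, the gel-forming mucin of the gastric surface, was at 23.9 and 33.0 TPM in 6694c2 and 4.09 and 3.19 TPM in 2838c3, against 0.154 and 2.68 TPM in 6499c4 and 1.30 and 0.843 TPM in 6419c5. Muc5b, the related airway and duct mucin, was at 6.40 and 4.13 TPM in 6694c2 and 4.28 and 1.69 TPM in 2838c3, against 0 and 0.0318 TPM in 6499c4 and 0.202 and 0.179 TPM in 6419c5. Both mucins were apart between the pairs, Muc5ac by a narrow margin in 2838c3. The difference of Muc5ac was 2.49, or 1.16 without 6694c2.

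Tm4sf20, a tetraspan membrane protein of intestine, was at 3.93 and 4.53 TPM in 6694c2 and 1.09 and 1.61 TPM in 2838c3, against 69.1 and 95.7 TPM in 6499c4 and 77.2 and 107 TPM in 6419c5. Agr2, the disulphide isomerase needed for mucin folding, was at 0 and 0.117 TPM in 6694c2 and 0.0607 and 0.0626 TPM in 2838c3, against 4.45 and 21.8 TPM in 6499c4 and 10.0 and 4.55 TPM in 6419c5. Lgals4, a galectin of gut epithelium, was at 932 and 685 TPM in 6694c2 and 90.9 and 106 TPM in 2838c3, against 1846 and 1910 TPM in 6499c4 and 1369 and 1395 TPM in 6419c5. The difference of Lgals4 was -2.52, or -1.01 without 2838c3. Agr2 was thus near 0 where Muc5ac and Muc5b were higher. Cldn18, the stomach-type claudin, distinguished 6499c4 alone, at 0.993 and 1.48 TPM in 6694c2 and 0.721 and 1.36 TPM in 2838c3, against 179 and 208 TPM in 6499c4 and 0.638 and 0.439 TPM in 6419c5.

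Among ion and water transport genes, 7 of 27 tested were called lower and 0 higher, against 4.29% and 1.83% of all genes, and 24 of the 27 had a negative difference, with a median of -0.74. Aqp5, a water channel of secretory glands, was at 59.0 and 50.8 TPM in 6694c2 and 12.3 and 6.59 TPM in 2838c3, against 593 and 842 TPM in 6499c4 and 114 and 129 TPM in 6419c5. Clca1, a secreted regulator of calcium-activated chloride channels from goblet cells, was at 0.445 and 1.87 TPM in 6694c2 and 0.560 and 0.685 TPM in 2838c3, against 57.6 and 112 TPM in 6499c4 and 11.5 and 24.5 TPM in 6419c5. Aqp8, another water channel, was at 50.3 and 48.7 TPM in 6694c2 and 7.78 and 18.4 TPM in 2838c3, against 75.6 and 95.5 TPM in 6499c4 and 146 and 125 TPM in 6419c5. These sets did not overlap, and for Aqp5 and Aqp8 the 6694c2 libraries lay closer to the other pair than those of 2838c3. Without 2838c3, 12 of the 27 genes were called lower, and the difference of Aqp8 was -1.10 in place of -2.07 and that of Aqp5 -2.40 in place of -3.64. Without 6499c4, that of Aqp5 was -2.37. The other called members were Car8, Clca3a1, Scnn1a (an epithelial sodium channel chain) and Slc26a2 (a sulphate transporter), with differences of -6.13, -2.42, -1.59 and -1.57, of which Scnn1a and Slc26a2 were picked after their values were seen. That of Scnn1a was -0.62 without 6419c5, and that of Slc26a2 was -0.85 without 6499c4. Clca1 and Clca3a1 belong to a family of similar neighbouring genes, and reads could be split between them.

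The knockout targets mucin-type O-glycosylation. In the list made for it, 6 of 31 genes were called lower and 1 higher, against 4.29% and 1.83% of all genes. It also holds transferases, B4galnt1 among them, that act on other glycans, so its count is not one of that pathway alone. The list's median was -0.23. Fut2, which adds the fucose of the H antigen to gut and gland glycans, was at 1.09 and 3.67 TPM in 6694c2 and 0.649 and 1.15 TPM in 2838c3, against 23.8 and 59.8 TPM in 6499c4 and 13.9 and 16.4 TPM in 6419c5. St3gal6, a sialyltransferase, was at 7.06 and 7.26 TPM in 6694c2 and 17.0 and 29.9 TPM in 2838c3, against 106 and 162 TPM in 6499c4 and 78.3 and 75.3 TPM in 6419c5. Galnt4, one of the transferases that start O-glycans, was at 6.73 and 11.1 TPM in 6694c2 and 9.23 and 13.5 TPM in 2838c3, against 105 and 186 TPM in 6499c4 and 22.7 and 32.1 TPM in 6419c5. The pairs overlapped in none of the 3 genes. B4galnt1, St3gal3 and Fut4 were the other genes called lower, with differences of -1.74 for B4galnt1 and -1.58 for St3gal3. Galnt4 had a difference of -2.53, or -1.37 without 6499c4, and that of B4galnt1 was -0.95 without 6694c2. Galnt1, another initiating transferase, picked after its value was seen, was the one called higher, with a difference of 1.25, or 0.91 without 2838c3. Galnt4 overlaps Poc1b, so reads of these 2 genes may be shared.

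**Figure D3:**
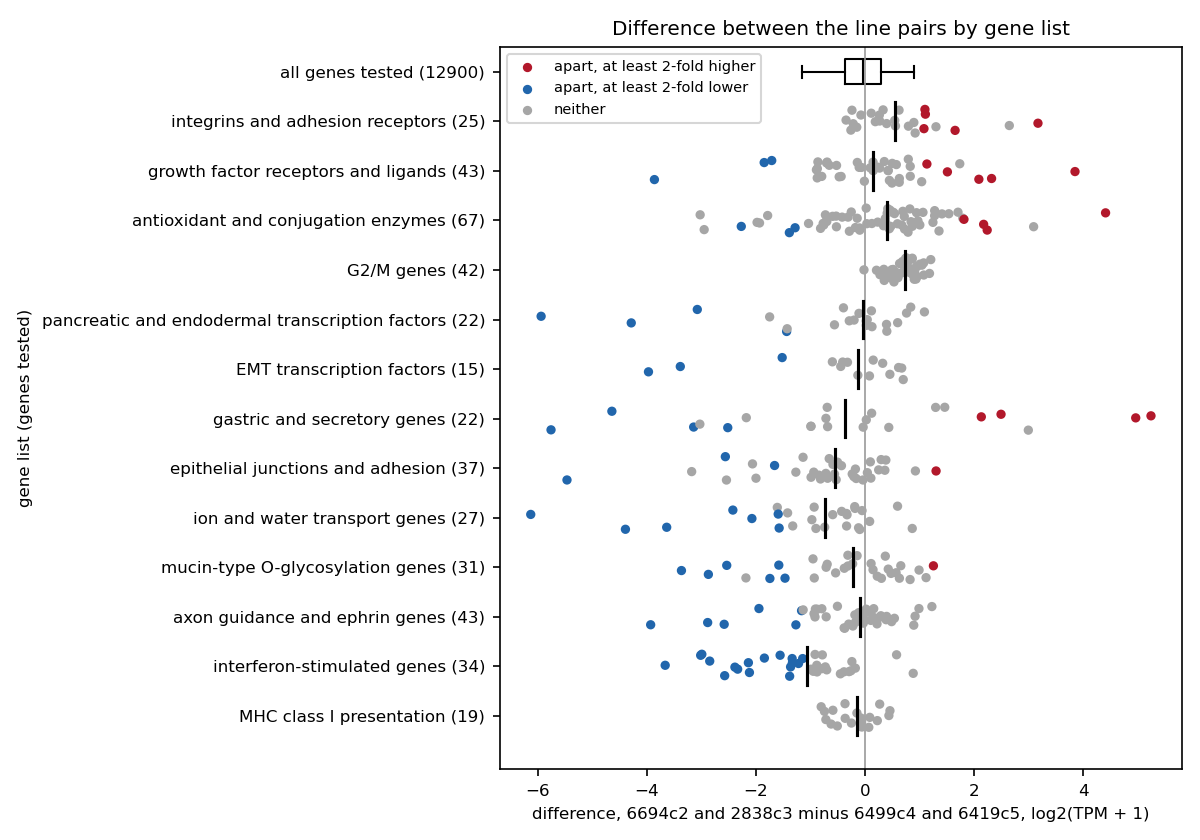
Differences of single genes (points, log2 scale) in 13 gene lists, with red for genes apart and at least 2-fold higher in 6694c2 and 2838c3, blue for those apart and at least 2-fold lower, grey for the others, a black bar at each list's median, and a box for all 12900 genes (quartiles, whiskers at the 5th and 95th percentiles). Interferon-stimulated and ion transport genes lie mostly left of 0, and integrin and G2/M genes mostly right of it.

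Interferon-stimulated genes had the lowest median of the 36 lists with at least 10 genes tested, -1.07. Of 34 genes tested 17 were called lower and 0 higher, against 4.29% and 1.83% of all genes. Some of the 17, among them Rtp4, Dhx58 and Gbp9, were below 1 TPM in every 6694c2 and 2838c3 library. Those passed the filter only through the other pair and so had to differ. Of the 34, 32 had a negative difference. The list's median deviation from the mean of the 4 lines was -0.64 in 6694c2 and -0.57 in 2838c3, against 0.06 in 6499c4 and 1.04 in 6419c5. On this median, 6419c5 thus stood farthest from the other lines.

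Sting1, the adaptor of cytosolic DNA sensing, was at 5.61 and 14.4 TPM in 6694c2 and 0.884 and 0.842 TPM in 2838c3, against 106 and 139 TPM in 6499c4 and 22.2 and 25.2 TPM in 6419c5. Irf7, the transcription factor that amplifies interferon production, was at 1.90 and 3.36 TPM in 6694c2 and 1.74 and 0.621 TPM in 2838c3, against 20.8 and 10.8 TPM in 6499c4 and 23.5 and 36.7 TPM in 6419c5. Isg15, the ubiquitin-like modifier, was at 1.52 and 1.61 TPM in 6694c2 and 0 and 0.321 TPM in 2838c3, against 10.5 and 3.77 TPM in 6499c4 and 10.6 and 16.1 TPM in 6419c5. All 8 libraries of these genes fell into the pairs without overlap, and for Sting1 the highest were those of 6499c4, unlike for Irf7. Rtp4, an inhibitor of viral replication, was at 0.332 and 0.320 TPM in 6694c2 and 0.147 and 0.265 TPM in 2838c3, against 5.597 and 2.12 TPM in 6499c4 and 11.6 and 25.4 TPM in 6419c5. Dhx58, the LGP2 helicase, was at 0.243 and 0.116 TPM in 6694c2 and 0.574 and 0.247 TPM in 2838c3, against 8.34 and 3.73 TPM in 6499c4 and 4.50 and 7.34 TPM in 6419c5. Gbp9, an interferon-induced GTPase of a family of near-identical genes among which reads may be shared, was at 0.103 and 0.176 TPM in 6694c2 and 0.515 and 0.687 TPM in 2838c3, against 7.90 and 8.31 TPM in 6499c4 and 8.84 and 15.2 TPM in 6419c5. The differences of these 6 genes lay between -3.66 and -2.38. Without 6419c5, 12 of the 34 genes were called lower, and without 6499c4, 25 were. Without 6694c2, 1 gene of the list was called higher. The difference of Sting1 was -2.44 without 2838c3, and that of Rtp4 was -1.84 without 6419c5, in place of -2.85.

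Other immune lists differed less. Over all genes 4.29% were called lower and 1.83% higher, so counts of 2 or fewer say little about lists this short. None of 19 MHC class I presentation genes was called in either direction, and their median was -0.15. Of 28 chemokines and cytokines, 2 were called lower and 1 higher. Il1rn, the interleukin 1 receptor antagonist, was at 36.7 and 22.3 TPM in 6694c2 and 4.19 and 2.76 TPM in 2838c3, against 179 and 155 TPM in 6499c4 and 178 and 169 TPM in 6419c5. Il18, an epithelial inflammasome cytokine, was at 0.601 and 1.32 TPM in 6694c2 and 0.456 and 1.33 TPM in 2838c3, against 20.1 and 37.3 TPM in 6499c4 and 13.8 and 20.4 TPM in 6419c5. The difference of Il1rn was -3.90, or -2.53 without 2838c3. The one called higher was Il33, an epithelial alarmin picked after its value was seen, with a difference of 1.05, or 0.78 without 6694c2 and 0.85 without 6499c4. Of 19 immune ligands, Cd274, which encodes PD-L1, was the one called lower, at 0.977 and 0.775 TPM in 6694c2 and 4.82 and 2.54 TPM in 2838c3, against 7.65 and 8.50 TPM in 6499c4 and 14.6 and 25.1 TPM in 6419c5. Nectin1, an adhesion molecule and ligand of CD96, was called higher, at 5.43 and 8.47 TPM in 6694c2 and 11.5 and 10.5 TPM in 2838c3, against 0.117 and 0.0840 TPM in 6499c4 and 0.189 and 0.164 TPM in 6419c5. Both genes were apart, with Nectin1 below 1 TPM throughout 6499c4 and 6419c5. Among complement and acute phase genes, 2 of 18 were called higher and 1 lower. Masp1, a protease of the lectin pathway, was at 4.34 and 22.5 TPM in 6694c2 and 20.4 and 19.8 TPM in 2838c3, against 0.361 and 0.489 TPM in 6499c4 and 3.16 and 3.11 TPM in 6419c5.

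**Figure D4:**
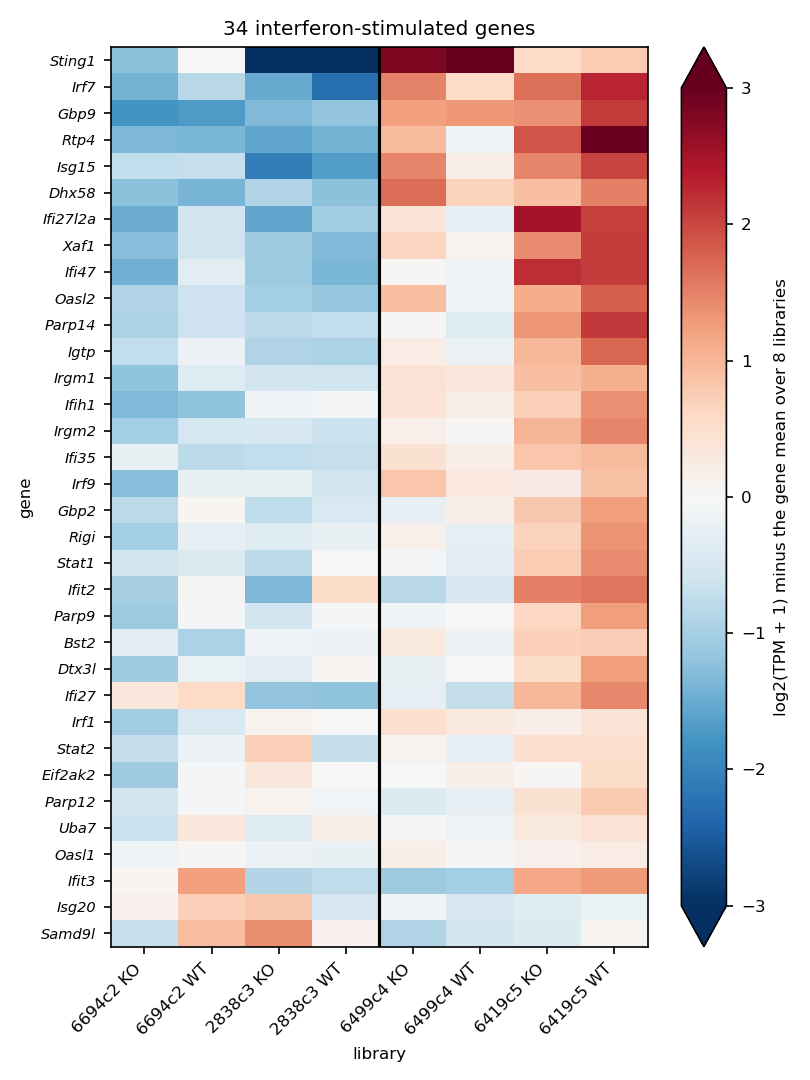
Heat map of the 34 interferon-stimulated genes tested (rows, ordered by the difference between the pairs) in 8 libraries (columns), as log2(TPM + 1) minus the gene's mean over the libraries. Libraries of 6694c2 and 2838c3 are left of the black line, 32 of the 34 rows have a negative difference, and the strongest red lies mostly in 6419c5.

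Integrins and adhesion receptors went the other way: 5 of 25 were called higher and 0 lower, against 1.83% and 4.29% of all genes. Of the 25, 19 had a positive difference, and the median was 0.54. Besides Itga7 those called higher were Vcam1, Cd44, Cd9 and Bcam, the last picked after its value was seen. Vcam1, the ligand of integrin alpha 4 beta 1, was at 155 and 149 TPM in 6694c2 and 196 and 284 TPM in 2838c3, against 59.1 and 40.1 TPM in 6499c4 and 54.9 and 96.7 TPM in 6419c5. Cd44, the hyaluronan receptor, was at 48.0 and 121 TPM in 6694c2 and 121 and 97.7 TPM in 2838c3, against 47.5 and 38.3 TPM in 6499c4 and 42.8 and 39.2 TPM in 6419c5. Cd9, a tetraspanin, was at 731 and 1024 TPM in 6694c2 and 853 and 809 TPM in 2838c3, against 376 and 410.0 TPM in 6499c4 and 445 and 356 TPM in 6419c5. For Cd44 the KO library of 6694c2, at 48.0 TPM, was close to the highest library of 6499c4, at 47.5 TPM, and its difference of 1.11 was 0.85 without 2838c3.

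Of 43 growth factors and receptors, 5 were called higher and 3 lower, against 1.83% and 4.29% of all genes. The list's median was 0.15. Pdgfd, a ligand of the PDGF receptor beta, was at 0.0561 and 0.0722 TPM in 6694c2 and 0.0497 and 0.0769 TPM in 2838c3, against 12.3 and 23.95 TPM in 6499c4 and 9.80 and 14.9 TPM in 6419c5. Igfbp5, a carrier of insulin-like growth factors, was at 4.27 and 9.04 TPM in 6694c2 and 3.05 and 9.66 TPM in 2838c3, against 0.331 and 0.462 TPM in 6499c4 and 0.355 and 0.395 TPM in 6419c5. Areg, a ligand of the EGF receptor, was at 194 and 91.0 TPM in 6694c2 and 113 and 55.5 TPM in 2838c3, against 32.9 and 21.2 TPM in 6499c4 and 47.8 and 8.65 TPM in 6419c5. Pdgfd was near 0 in 6694c2 and 2838c3, and Igfbp5 below 1 TPM in 6499c4 and 6419c5. Areg was higher in the KO than in the WT library of each line, and its pairs were apart only narrowly.

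Among 43 axon guidance and ephrin genes, with a median of -0.10, 6 were called lower and 0 higher, against 4.29% and 1.83% of all genes. The 3 with the largest differences were semaphorins, secreted or membrane-bound guidance ligands: Sema4f at -3.93, Sema3d at -2.88 and Sema5a at -2.58. Sema4f was at 0.351 and 0.588 TPM in 6694c2 and 0.207 and 0.367 TPM in 2838c3, against 18.6 and 17.7 TPM in 6499c4 and 22.6 and 21.0 TPM in 6419c5. All 3 were below 1 TPM in every 6694c2 and 2838c3 library and passed the filter only through the other pair.

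In the list of 35 pancreatic cancer driver genes, 2 were called lower and 1 higher, against 4.29% and 1.83% of all genes. Counts so near those shares say little about the list. Cdkn2a, the tumour suppressor locus of Ink4a and Arf, was at 5.21 and 5.76 TPM in 6694c2 and 536 and 519.9 TPM in 2838c3, against 1507 and 1237 TPM in 6499c4 and 1088 and 1212 TPM in 6419c5. Its neighbour Cdkn2b, the Ink4b gene, was at 1.52 and 2.12 TPM in 6694c2 and 259.7 and 196 TPM in 2838c3, against 336 and 268 TPM in 6499c4 and 352 and 350.5 TPM in 6419c5. Both were close to absent in 6694c2 alone. Without 6694c2 the difference was -1.24 for Cdkn2a, in place of -4.42, and -0.52 for Cdkn2b, in place of -3.69. Rb1, the retinoblastoma gene, was the one called higher, at 16.5 and 18.5 TPM in 6694c2 and 13.9 and 8.89 TPM in 2838c3, against 4.94 and 6.32 TPM in 6499c4 and 5.02 and 4.28 TPM in 6419c5. Its difference of 1.30 was 0.99 without 6694c2. Of 25 p53 target genes 2 were called higher and 2 lower, against 1.83% and 4.29% of all genes. Cdkn1a, the p21 inhibitor, was one of those called higher, at 80.8 and 88.1 TPM in 6694c2 and 212 and 44.0 TPM in 2838c3, against 32.1 and 10.5 TPM in 6499c4 and 42.2 and 15.2 TPM in 6419c5. Its lowest 2838c3 library and its highest 6419c5 library nearly met.

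Of 28 genes that report RAS-MAPK output, 4 were called lower and 1 higher, with a median of -0.14. Egr1, an immediate early transcription factor, was at 51.2 and 59.3 TPM in 6694c2 and 58.4 and 41.4 TPM in 2838c3, against 113 and 189.5 TPM in 6499c4 and 356 and 206 TPM in 6419c5. Jun, the AP-1 subunit, was at 24.1 and 38.1 TPM in 6694c2 and 110.5 and 25.5 TPM in 2838c3, against 135 and 168 TPM in 6499c4 and 139.6 and 135 TPM in 6419c5. Dusp4, a nuclear MAPK phosphatase, was the one called higher, at 240.4 and 184 TPM in 6694c2 and 219 and 176 TPM in 2838c3, against 108 and 98.4 TPM in 6499c4 and 61.8 and 66.0 TPM in 6419c5. Its difference of 1.31 was 0.97 without 6419c5. Spry4, a feedback inhibitor of the pathway, was called lower, with a difference of -1.27. Over all genes 4.29% were called lower and 1.83% higher, so that 1 of 28 called higher says little about the list.

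Cell cycle genes had mostly positive differences without called members. Of 42 G2/M genes 41 had a positive difference and the median was 0.72, yet 0 were called in either direction. The list's median level in log2(TPM + 1) was 4.90 and 5.38 in 6694c2 and 3.13 and 6.12 in 2838c3, against 4.31 and 4.71 in 6499c4 and 4.36 and 3.55 in 6419c5. The KO and WT libraries of 2838c3 were thus the lowest and the highest of the 8. Of 41 G1/S genes 35 had a positive difference, with a median of 0.38 and 0 called. The G1/S list's median level was 4.19 and 4.73 in 6694c2 and 3.73 and 5.16 in 2838c3, against 4.14 and 4.36 in 6499c4 and 4.06 and 4.02 in 6419c5. For both lists the KO and WT libraries of 2838c3 differed by more than the pairs did. Of 29 ATF4 stress genes 1 was called higher and 1 lower, against 1.83% and 4.29% of all genes. The ATF4 stress genes had the highest median of the 36 lists, 0.97. Their median level was 7.05 and 6.01 in 6694c2 and 6.02 and 5.95 in 2838c3, against 5.09 and 5.04 in 6499c4 and 6.64 and 4.78 in 6419c5. The highest values belonged to the KO libraries of 6694c2 and 6419c5, in which identifiers without a gene name held 12.5% and 9.69% of all TPM, against 0.713% to 1.33% in the other 6 libraries. The part of these identifiers in that result was not tested.

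Over all 38 lists that are not cell type marker lists, 18 had more members called lower than higher, 10 more higher than lower, 6 equal counts and 4 no called member. Over all genes 70.1% of calls were lower, so a majority of lists on the lower side is no result about the lists. The 4 were MHC class I presentation, G1/S, G2/M and cholesterol and fatty acid synthesis genes.

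The differences were unevenly spread over the chromosomes. Over all genes tested 4.29% were called lower and 1.83% higher. Relative to the median of all genes, the median difference was -0.39 on chromosome 10, where 125 of 595 genes lay above that median and 8.57% were called lower. It was 0.39 on chromosome 14, where 331 of 422 lay above it and 3.55% were called higher, and 0.37 on chromosome 13, where 377 of 477 did. On chromosome 10 the median deviation of each line from the mean of the 4 lines was -0.31 in 6694c2 and -0.10 in 2838c3, against 0.13 in 6499c4 and 0.24 in 6419c5. On chromosome 14 it was 0.28 in 6694c2 and 0.14 in 2838c3, against -0.15 in 6499c4 and -0.27 in 6419c5. Both lines of a pair were thus on the same side for these chromosomes, with 6694c2 and 6419c5 the farther ones. Chromosome 12, with a median difference of 0.29, was high in 6694c2 only, where the deviation was 0.42, against -0.13 in 2838c3. On the X chromosome 29 of 391 genes were called lower and 0 higher, and the median deviation was -0.07 in 6694c2 and -0.05 in 2838c3, against 0.23 in 6499c4 and -0.11 in 6419c5. Xist, the RNA that coats the inactive X, was at or below 0.0839 TPM in 6499c4 and between 3.93 and 32.0 TPM in the 3 other lines.

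**Figure D5:**
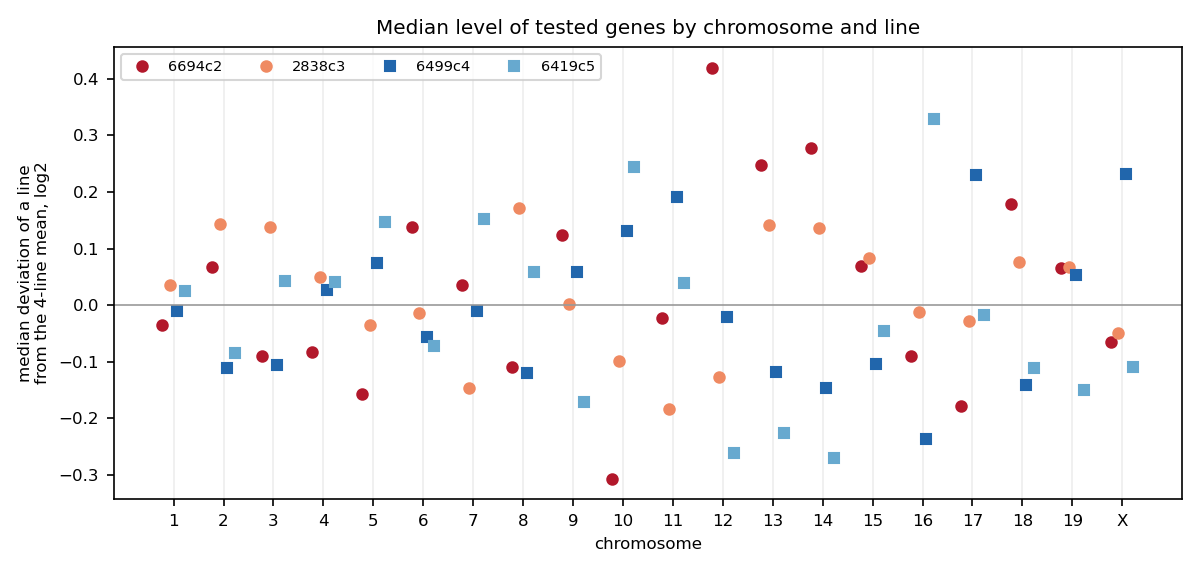
Median deviation of each line from the mean of the 4 lines (log2, y axis, each line centred on its median over all genes) for the tested genes of each chromosome (x axis), with red circles for 6694c2 and 2838c3 and blue squares for 6499c4 and 6419c5. Red lies above blue on chromosomes 13 and 14 and below it on chromosome 10, and chromosome 12 is raised in 6694c2 alone.

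In windows of 15 neighbouring tested genes (GRCm39), the strongest run upward lay at chr5:90748013-92144169, with a median difference of 0.84 relative to all genes. It holds chemokine genes Cxcl5, Ppbp, Cxcl3, Cxcl1 and Cxcl2 and the EGF receptor ligands Ereg, Areg and Btc, and 3 of its 15 genes were called higher. The median deviations were 0.12 in 6694c2 and 0.48 in 2838c3, against -0.81 in 6499c4 and -0.17 in 6419c5. The strongest run downward lay at chr10:95350742-105466166, with a median of -0.81 and 5 of 15 genes called lower, and includes Galnt4, Dusp6, Kitl and Slc6a15. A run at chr7:45084175-45359627 that includes Fut2 had a median of -0.81 with 4 genes called lower, and there 2838c3 deviated by -0.66 and 6694c2 by -0.05. Windows were ranked by the differences themselves, so their size is a description. The Cxcl genes are similar in sequence and may share reads.

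The effect of the knockout is a difference inside a line and was the one quantity tested between the pairs. limma was fitted to all 12900 genes with the line as a block, and asked whether KO minus WT differed between 6694c2 and 2838c3 on the one hand and 6499c4 and 6419c5 on the other. It called 0 genes (0% of those tested) at a Benjamini-Hochberg adjusted p under 0.05, with 385 at an unadjusted p under 0.05. The comparison is of 2 lines with 2 lines, and the pairs had been chosen on levels in the same libraries. Leaving out 6694c2 gave 324 calls by limma, 125 with a higher KO effect in 2838c3 and 199 with a lower one, with a lone line on one side that is assumed to vary like the others.

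KO effects of lines of a pair were not alike across genes. The Pearson r of KO minus WT over the 12900 genes was -0.13 between 6694c2 and 2838c3 and 0.06 between 6499c4 and 6419c5. Across the pairs it was 0.37 between 6694c2 and 6419c5, 0.22 between 2838c3 and 6499c4, -0.05 between 6694c2 and 6499c4 and -0.20 between 2838c3 and 6419c5. The 2 higher values joined the T cell-poor lines with each other and the T cell-rich lines with each other, and each line contributes 1 difference of 2 libraries. Unnamed identifiers took their high share in the KO libraries of 6419c5 and 6694c2, and the part of that share in the first value was not tested. Among called genes, a KO change of at least 2-fold was seen for 81 in 6694c2 and 107 in 2838c3, against 43 in 6499c4 and 60 in 6419c5. Shares over all genes were not counted line by line, so these counts show nothing particular to the called genes. A KO change under 2-fold in all 4 lines was seen for 70.3% of the called genes, against 79.8% of all genes tested.

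The label of ductal carcinoma cells was checked on cell type markers. Of 11 ductal epithelium markers 10 reached 1 TPM in at least 1 library, with summed levels of 13380 to 20067 TPM in 6694c2 and 2838c3 and 13819 to 24204 TPM in 6499c4 and 6419c5. Summed levels of 9 fibroblast markers were 7.23 to 10.2 TPM, against 6.28 to 13.8 TPM, those of 8 immune markers 8.66 to 28.9 TPM, against 6.22 to 18.9 TPM, mostly Cd68, and those of 6 endothelial markers 5.42 to 13.1 TPM, against 9.99 to 18.7 TPM, mostly Egfl7. Acinar markers summed to 18.0 to 44.8 TPM in 6694c2 and 2838c3, against 6.43 to 13.1 TPM in 6499c4 and 6419c5, mostly Cela1, an elastase, with Prss2, a trypsinogen, at 1.74 and 2.65 TPM in 6419c5 and the defining genes Ptf1a and Cpa1 at 0. Islet markers summed to 7.06 to 10.96 TPM, against 9.19 to 10.4 TPM, with Ins1, Ins2 and Gcg at 0, and neural and glial markers to 18.9 to 51.9 TPM, against 15.8 to 37.6 TPM, mostly Tubb3.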

How the data were processed

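The deposited values are TPM of 49315 gene identifiers in 8 libraries, made by the authors with cutadapt, STAR and featureCounts on mm39 per the submitters' processing notes; gene lengths and annotation are not given in the sources used here. TPM are shares that keep no depth, so none is stated and no interval can be given. Names and positions came from GENCODE M39 (45505 identifiers matched). Genes reaching 1 TPM in 4 or more libraries (12900) were kept, and log2(TPM + 1) was used, which understates the change of low genes. Lines were weighted equally, and KO and WT are balanced inside each pair. The pairs, gene lists and members were chosen with earlier results of these data known. Named genes are the 12 largest differences in each direction among called genes of at least 10 TPM in the higher pair (predicted genes skipped), up to 6 members of each of 45 lists, the lineage and transition factors, C1galt1c1 and the genes of the runs; exceptions are marked, and some genes that the rule names are not reported here. The KO effect between the pairs was tested with limma 3.58.1 in R 4.3.3, with line as a block, a variance trend and Benjamini-Hochberg adjustment, after a test on simulated data. The labels do not say that cultures were repeated, so its p-values measure the spread between lines. Alternatives were another pseudocount, other filters, median-ratio and quantile scaling, KO or WT libraries alone, and lines or libraries left out. The removal of unnamed and small structural RNA identifiers, and the counts in 2 lists, were added after seeing the data.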

Additional observations from a re-analysis of the deposited data

Results flagged for a closer look

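In 9 of 176 groups of 4 libraries looked at, 1 library stood apart, its gap to the nearest of the others taking more of the group's whole range than the 95% critical value of Dixon's test allows, on log2(TPM + 1), or on the percent scale for the share of unnamed identifiers. Chance flags about 5% of groups of 4 independent values, and 5.11% were flagged here. The KO and WT libraries of a line are not independent, so the chance rate for these groups is not known. The share flagged therefore cannot be judged against 5%. The groups came from 87 of the genes named, not from all of them, and from the share of unnamed identifiers. None of the genes named had a KO effect that differed between the pairs by limma.

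In the pair of 6694c2 and 2838c3, Masp1 was at 4.34 TPM in the KO library of 6694c2, below the other 3, which lay between 19.8 and 22.5 TPM. Its WT library was the highest of the 4. Identifiers without a gene name held 12.5% of TPM in that same KO library.

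In the pair of 6499c4 and 6419c5, the 6419c5 WT library was the high one for Foxa1 at 12.5 TPM, for Foxa2 at 148 TPM and for Gbp9 at 15.2 TPM. That library was also the high one for Cdh16 at 0.0815 TPM, a level at which the gene is close to absent. The 6499c4 WT library was the low one for Cdkn2b at 268 TPM and the high one for Jun at 168 TPM. Unnamed identifiers held 9.69% of TPM in the 6419c5 KO library.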

How the results depend on the processing

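Counts of called genes changed with the libraries and thresholds used. Against 236 higher and 554 lower, KO libraries alone gave 375 higher, WT libraries alone 698 higher, a TPM minimum of 5 gave 366 lower, and a minimum difference of 2 gave 60 higher and 215 lower. With KO or WT libraries alone, or a line left out, fewer libraries have to be apart. Leaving out a line gave 444 to 598 higher and 681 to 1026 lower, the lowest without 6694c2 in both cases. Leaving out a library gave 243 to 418 higher, the highest without the 2838c3 KO library, and 513 to 692 lower. The lower share of calls, 70.1%, was 64% with median-ratio scaling and 61.8% with quantile normalization, and it was nearest to even, 53.8% with 812 lower, in WT libraries alone and 54.2% without 6419c5. Both counts stayed within 1.5 times with these scalings, with a pseudocount of 0.1, without a filter and without structural RNA. Of 34 interferon-stimulated genes, 9 were called lower with a minimum difference of 2. With a TPM minimum of 5, 7 were called lower, but that filter also removed members of the list, among them Rtp4, Dhx58 and Isg15. The mean correlation inside pairs, 0.929, was 0.906 both with a pseudocount of 0.1 and with a TPM minimum of 5, while that across pairs was 0.866 and 0.862. The count of genes whose KO effect differed between the pairs by limma, 0, lay between 0 and 324 with a line left out, all 324 without 6694c2, and the cause was not tested; it was 0 under each other alternative, including no replicate block. Alternatives were followed for 87 of the genes named, not for all of them. Of their 1566 values, 1469 moved by less than the spread between lines and 97 by more. None of the called ones among them changed sign. Depth behind these TPM is unknown.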
